A study of Mus musculus with 24 samples.

Results

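Transcript levels of 6 transcription factors of the kidney tubule, Hnf4a, Pax8, Pax2, Tfcp2l1, Sox9 and Sox4, were followed through ureter obstruction and its reversal in mouse kidney. They were the rows of the expression table whose gene symbol matched these names, 1 row each, out of 14785 genes; all 6 thus passed the authors' removal of genes of low mean. Gene expression was measured by RNA sequencing of polyA-selected libraries from whole-tissue kidney RNA of male C57/BL6 mice labelled 8 weeks of age, with 4 mice in each of 6 groups; the series title names the cortex as the source, and the tissue label names only the kidney. The groups were sham surgery (Sham, with no time after surgery given), unilateral ureter obstruction by ligation with collection after 2 days (UUO2) or 7 days (UUO7), and 7 days of obstruction followed by reimplantation of the ureter and a further 1 week (R1W), 2 weeks (R2W) or 4 weeks (R4W). The 4 mice of a group were selected from 10, by a criterion that was not stated. R4W replicate 2 was grouped by its title, while its treatment label gives 2 weeks.

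A tubule cell keeps its identity through transcription factors that hold its transport genes active. HNF4A, a nuclear receptor, drives the brush-border, transport and metabolic genes of the proximal tubule. PAX2 and PAX8 are paired-box factors needed to form the nephron in the embryo; in the adult kidney PAX8 is found along the tubule, whereas PAX2 is found mainly in the collecting duct and other distal segments. TFCP2L1 is a grainyhead-family factor of the distal nephron and collecting duct, where it sets the programme of intercalated and principal cells. SOX9 and SOX4 are high-mobility-group factors that are active in the developing nephron; SOX9 is low in adult tubules and is switched on again in tubule cells that survive injury.

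On mm10 (GRCm38) the genes lie at chr2:163506808-163572910 (Hnf4a, plus strand), chr2:24420560-24475599 (Pax8, minus), chr19:44756045-44837871 (Pax2, plus), chr1:118627945-118685168 (Tfcp2l1, plus), chr11:112782224-112787760 (Sox9, plus) and chr13:28948919-28953713 (Sox4, minus). All 6 are protein coding and have the same coordinates in the GENCODE annotation. Sox9 has 1 annotated transcript of 3 exons and 4135 bases, and Sox4 is a gene of 1 exon and 4795 bases. RefSeq gave 8 promoter windows for 5 of the members; each covers the 250 bases before a transcription start on GRCm38.p6. A pair of windows is printed, for the member that fell furthest and for a member that rose; capitals mark matches on either strand to the motif of AP-1 (TGANTCA), of TEAD (GGAATG), of the CCAAT box (CCAAT) and of the HNF4 direct repeat (AGGNCA and AGGNCA with 1 free base between). Both run 5′ to 3′ on the strand of the gene. The Hnf4a window lies before the downstream of its starts, within the annotated gene, at chr2:163546905-163547154 on the plus strand, and the Sox4 window at chr13:28953700-28953949 on the minus strand.
Hnf4a: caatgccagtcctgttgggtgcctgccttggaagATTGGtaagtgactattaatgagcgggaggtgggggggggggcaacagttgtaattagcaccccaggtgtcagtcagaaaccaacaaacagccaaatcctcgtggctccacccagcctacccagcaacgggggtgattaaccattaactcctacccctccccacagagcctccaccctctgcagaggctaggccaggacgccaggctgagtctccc
Sox4: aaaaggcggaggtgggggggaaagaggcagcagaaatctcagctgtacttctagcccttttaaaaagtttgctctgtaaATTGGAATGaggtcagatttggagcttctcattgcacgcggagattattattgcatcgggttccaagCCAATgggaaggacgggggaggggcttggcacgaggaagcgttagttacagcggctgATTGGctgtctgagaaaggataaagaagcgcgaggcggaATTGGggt

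The capital run in the Hnf4a window is a CCAAT box on the opposite strand, whose first base is at position -216 counted back from the start. The motifs were also counted in all 32851 mouse promoter windows of this length. The window before the upstream start of Hnf4a held a CCAAT box, at -192, as its sole match. The Sox4 window held 4 CCAAT boxes, where 33.8% of all windows held at least 1, and at -168 a TEAD match that shares bases with the CCAAT box at -171; 12.6% of windows held the TEAD motif. The Pax8 window held a CCAAT box at -57. The AP-1 motif (6.7% of windows) and the HNF4 repeat (0.338%) matched in none of the 8 windows.

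The values were FPKM, fragments scaled to transcript length and library depth, so levels can be set side by side between genes. As deposited, the median gene was 0.42 higher on the log2 scale in UUO7 than in Sham and 0.30 higher in R4W. Each library was therefore divided by a median-ratio factor, with group means from 0.814 in Sham to 1.14 in UUO7, and levels below are scaled FPKM unless called deposited. Fold changes are differences of log2(scaled FPKM + 1) from limma over all genes and all 24 libraries. Calls needed an adjusted p under 0.05 (Benjamini-Hochberg, over all genes). The low values of 20 libraries showed steps worth 24960000 to 35420000 fragments each; in UUO2 steps were found in replicate 3 alone of the 4, worth 73480000 fragments, and the design text names no group of 2 days of obstruction, so the depth of that group is largely unknown, and any difference in how its libraries were made cannot be told apart from 2 days of obstruction. Markers of the tubule were abundant in every library: the summed level of 6 proximal tubule markers was 4175 to 5432 in Sham and lowest, 728 to 942, in UUO7. In bulk RNA, fewer cells of a type and less RNA per cell cannot be told apart.

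The libraries of Sham replicate 2 and UUO2 replicate 2 stood apart from others of their groups. In Sham replicate 2 the summed level of 6 urothelium markers was 45.4 against 2.20 to 3.84 in the other Sham mice, and that of 4 adipose markers was the highest of its group at 35.9. In UUO2 replicate 2, Havcr1 (kidney injury molecule 1) was 247 against 530, 561 and 720 in the other mice of the group, while Lcn2 (lipocalin 2), at 474, lay among theirs of 458 to 611. Where leaving out either library changed a call of a member, the value without it is given.

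**Figure D1:**
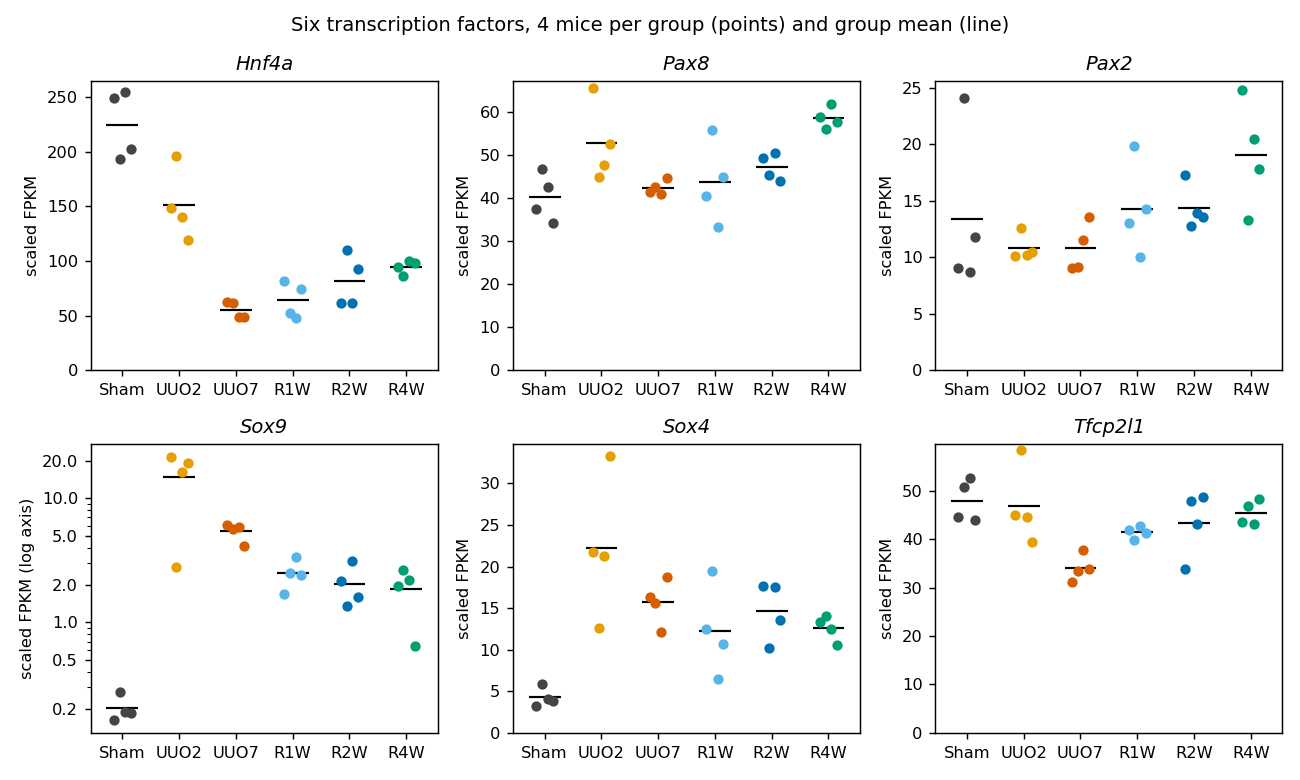
Scaled FPKM of the 6 factors in each mouse (points, 4 per group) with the group mean (line); the Sox9 axis is logarithmic and the others start at 0. Hnf4a lay lowest in UUO7 and remained below all Sham mice in R4W, Sox9 and Sox4 lay above all Sham mice in every other group, and the Pax2 point at 24.1 in Sham is replicate 2.

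Hnf4a fell during obstruction and stayed below Sham 4 weeks after reversal. Its level in Sham was 249, 193, 254 and 202 in replicates 1 to 4. In UUO2 it was 148, 196, 140 and 119, so that a single mouse, replicate 2, overlapped Sham. In UUO7 it was 62.7, 61.4, 48.4 and 48.6, below every mouse of Sham and UUO2. The mean went from 225 ± 31.5 (SD, n = 4) in Sham to 151 ± 32.4 in UUO2 and 55.3 ± 7.83 in UUO7. The log2 fold change against Sham was -0.58 (SE 0.192, adjusted p = 0.0152) in UUO2 and -2.003 (SE 0.192, adjusted p = 1.16e-08) in UUO7. The fall continued between the obstructed groups, with a fold change of -1.42 in UUO7 against UUO2 (adjusted p = 2.30e-06). The call in UUO2 rested on replicate 4, without which the fold change was -0.48 (adjusted p = 0.0619).

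After reversal Hnf4a recovered in part. It was 81.9, 52.3, 47.9 and 74.3 in R1W, where 2 mice lay within or below the UUO7 range. It was 61.6, 110, 61.6 and 93.0 in R2W, where the mice formed a lower and a higher pair. In the same R2W mice the proximal tubule markers summed to 1310, 2588, 1267 and 2072, the fibroblast markers to 377, 229, 412 and 257 and the macrophage markers to 1433, 662, 1194 and 808; their part in the Hnf4a split was not tested. It was 94.5, 86.5, 99.6 and 97.8 in R4W, above every UUO7 mouse and below every Sham mouse. Against UUO7 the fold change was 0.18 (adjusted p = 0.546) in R1W, 0.52 (adjusted p = 0.0474) in R2W and 0.77 (SE 0.192, adjusted p = 0.00275) in R4W. Against Sham the fold change of R4W was -1.23 (95% interval -1.63 to -0.83, adjusted p = 1.84e-05), at 0.421 of the Sham mean. The difference between R4W and R1W, 0.59 (adjusted p = 0.0403), was lost on leaving out any of R1W replicates 2 and 3 or any R4W mouse, with adjusted p between 0.0529 and 0.176, and in a fit of the 2 groups alone (adjusted p = 0.0833). In the order of the 6 group means the neighbours UUO7, R1W, R2W and R4W did not pass the test from one to the next, whereas R4W against UUO2 (adjusted p = 0.00679) and UUO2 against Sham did. The authors' deposited table gives a log2 fold change of -2.04 for UUO7 and -1.25 for R4W against Sham.

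Within the span of Hnf4a, on the other strand, the antisense gene Hnf4aos has its own row and shares no exon with it. Hnf4aos went from 21.9 ± 3.89 (SD, n = 4) in Sham to 4.55 ± 1.24 in UUO2, 3.11 ± 0.630 in UUO7 and 9.34 ± 2.78 in R4W. In UUO2 its 4 mice, at 3.32 to 6.26, lay below all Sham mice, at 18.0 to 26.9, whereas Hnf4a overlapped Sham in that group. Whether the counting used strand is not given in the sources used here.

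Pax8 overlapped Sham in obstruction and had its highest mean at 4 weeks of recovery. In Sham it was 37.3, 46.7, 42.6 and 34.3. In UUO2 it was 65.5, 44.8, 47.7 and 52.6, with replicate 2 inside the Sham range. In UUO7 the mice lay between 40.8 and 44.6, also inside it. The fold change against Sham was 0.38 (SE 0.124, adjusted p = 0.016) in UUO2 and 0.08 (95% interval -0.18 to 0.34, adjusted p = 0.571) in UUO7. The UUO2 call was lost in a fit of these 2 groups alone (adjusted p = 0.051), without Sham replicate 4 (0.30, adjusted p = 0.0641) or UUO2 replicate 1 (0.27, adjusted p = 0.0818). On deposited values, which carry the shift of the median gene, UUO7 was 0.56 above Sham (adjusted p = 0.00158).

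After reversal Pax8 was 40.4, 55.7, 33.3 and 44.8 in R1W and 43.9 to 50.3 in R2W, overlapping Sham in both. R1W against Sham was 0.10 (adjusted p = 0.488), and 0.54 on deposited values (adjusted p = 0.00234). R2W against Sham was 0.23 (adjusted p = 0.109); it passed without Sham replicate 2 (0.31, adjusted p = 0.0472), on deposited values (0.61, adjusted p = 8.65e-04), with upper-quartile scaling (0.33, adjusted p = 0.0374) and with R4W replicate 2 placed in R2W (0.28, adjusted p = 0.0485). In R4W it was 58.8, 55.9, 61.7 and 57.7, above every Sham, UUO7 and R2W mouse. The mean was 40.2 ± 5.52 (SD, n = 4) in Sham and 58.5 ± 2.46 in R4W, 1.46 times as high, with a fold change of 0.54 (SE 0.124, adjusted p = 8.63e-04). R4W was 0.46 above UUO7 (adjusted p = 0.00515), a call lost on deposited values (0.35, adjusted p = 0.0508), and 0.44 above R1W (adjusted p = 0.0229). The latter was lost on deposited values (0.37, adjusted p = 0.0758), in a fit of the 2 groups alone (adjusted p = 0.0935), without R1W replicate 3 (0.32, adjusted p = 0.116), without R4W replicate 1 (adjusted p = 0.0509) and without R4W replicate 3 (adjusted p = 0.0533). No step between neighbours in the order Sham, UUO7, R1W, R2W, UUO2, R4W passed the test. The non-coding gene Gm13415 overlaps exons of Pax8 on the other strand, has no row, and its reads could not be told from those of Pax8 if strand was not used.

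Pax2 rose between UUO7 and R4W, and its level in Sham depended on a single mouse. In Sham it was 9.04, 24.1, 8.67 and 11.8, with replicate 2 far above the others. In UUO2 it was 10.1, 12.6, 10.2 and 10.5, and in UUO7 9.04, 9.12, 11.5 and 13.6. It was 13.0, 19.9, 10.0 and 14.3 in R1W, 12.8 to 17.3 in R2W, and 24.8, 13.3, 20.5 and 17.8 in R4W. The fold change of R4W against UUO7 was 0.75 (SE 0.242, adjusted p = 0.0149); without R4W replicate 1 it was 0.62 (adjusted p = 0.0566). Against Sham the R4W difference of 0.56 did not pass (adjusted p = 0.0501), and without Sham replicate 2 it was 0.87 (adjusted p = 7.79e-04). With R4W replicate 2 placed in R2W, as its treatment label has it, the R4W difference was 0.72 (adjusted p = 0.0177), and on deposited values it was 0.91 (adjusted p = 0.00486). It also passed without R4W replicate 2 (adjusted p = 0.0209), with upper-quartile scaling (0.65, adjusted p = 0.0295), a pseudocount of 0.1 (adjusted p = 0.0488) or a minimum mean of 10 (adjusted p = 0.0471). For R4W against Sham the authors' deposited table gives 0.47, with an adjusted p over 0.05 from a test that was not stated. The fit without Sham replicate 2 kept R4W replicate 1. Its urothelium and adipose marker sums, 144 and 213, were above the 45.4 and 35.9 of Sham replicate 2. Without Sham replicate 2, R1W (0.47, adjusted p = 0.0396) and R2W (0.51, adjusted p = 0.0298) also passed. Against Sham the fold change was -0.17 in UUO2 and -0.19 in UUO7, and 0.14 and 0.12 without Sham replicate 2; none of these passed. No step between neighbours in the order UUO7, UUO2, Sham, R1W, R2W, R4W passed.

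The mice with high Pax2 also had high levels of urothelium and principal cell markers. In R4W the summed urothelium level was 144, 42.8, 103 and 80.8 in replicates 1 to 4, the same order as Pax2 in those mice. All 6 urothelium markers had a row, and their sum was 0.614 to 4.22 in UUO2, 17.1 to 30.9 in UUO7, 12.4 to 51.4 in R1W, 25.7 to 73.7 in R2W and 42.8 to 144 in R4W. The summed level of 6 principal cell markers was 979 in Sham replicate 2 against 386 to 542 in the other Sham mice, and 1056, 458, 699 and 688 in R4W. It was lowest in UUO7, at 198 to 271, where Pax2 overlapped Sham. The 4 adipose markers summed to 213 in R4W replicate 1 and 49.7 in R4W replicate 3. The part of these markers in the Pax2 differences was not tested.

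**Figure D2:**
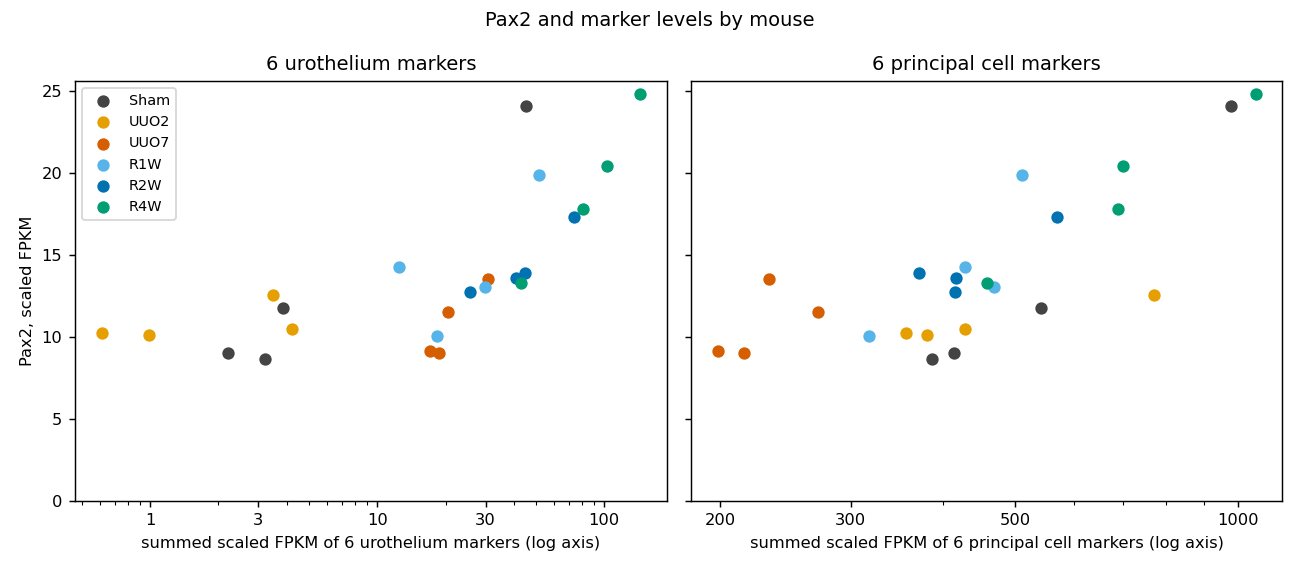
Scaled FPKM of Pax2 in each of the 24 mice (vertical axis) against the summed scaled FPKM of 6 urothelium markers (left) and 6 principal cell markers (right), on logarithmic horizontal axes with groups in colour. Sham replicate 2 (Pax2 24.1) and R4W replicate 1 (24.8) are the highest points; they lie furthest right in the principal cell panel, while in the urothelium panel R4W replicate 1 is furthest right and Sham replicate 2 (45.4) lies right of the other Sham mice.

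Tfcp2l1 had its lowest mean in UUO7 and had a mean within the Sham range 4 weeks after reversal. It was 44.5, 50.7, 52.6 and 44.0 in Sham and 45.0, 58.3, 44.6 and 39.5 in UUO2, with wide overlap. In UUO7 it was 31.1, 33.4, 37.9 and 33.7, below every Sham mouse. In R4W it was 43.5, 46.8, 43.1 and 48.3, with 2 mice just below the lowest Sham mouse. UUO7 was lower than Sham by a log2 fold change of -0.48 (SE 0.108, adjusted p = 4.46e-04) and than UUO2 by -0.44 (adjusted p = 0.00145). R4W was 0.41 above UUO7 (SE 0.108, adjusted p = 0.00443) and differed from Sham by -0.08 (95% interval -0.30 to 0.15, adjusted p = 0.568).

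These Tfcp2l1 results are relative to the median gene. On deposited values Tfcp2l1 was 35.2 to 44.1 in Sham and 35.0 to 42.6 in UUO7, with a fold change of -0.01 (adjusted p = 0.956) against Sham and -0.10 (adjusted p = 0.414) against UUO2, while R4W lay 0.29 above Sham (adjusted p = 0.0145). In the authors' deposited table the log2 fold change of UUO7 against Sham is -0.50. The rise from UUO7 to R4W passed on both scales, at 0.30 on deposited values (adjusted p = 0.0182). On deposited values it began near the Sham level and ended above it, so a return to Sham was seen on scaled values alone. R1W, at 39.8 to 42.8, lay above every UUO7 mouse and below every Sham mouse, but neither difference passed (adjusted p = 0.0842 and 0.103). In fits of the 2 groups alone both passed (adjusted p = 0.0332 and 0.0388), and on deposited values R1W was 0.24 above Sham (adjusted p = 0.0393). For R1W the authors' deposited table gives 0.27 against UUO7 and -0.22 against Sham. Both have an adjusted p under 0.05 there, from a test that was not stated. R2W was 33.8 to 48.6 and 0.33 above UUO7 (adjusted p = 0.0269). No step between neighbours in the order UUO7, R1W, R2W, R4W, UUO2, Sham passed. The small nuclear RNA gene Gm23497 shares exon bases with Tfcp2l1 on the same strand and has a row. Reads of those bases cannot be assigned to either gene, whether or not strand was used.

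Sox9 changed by the greatest factor of the members. It was near the floor in Sham, at 0.164, 0.276, 0.190 and 0.186, values that stand for about 17, 30, 21 and 19 fragments per library. It was 21.5, 2.77, 16.3 and 19.1 in UUO2 and 6.08, 5.66, 5.86 and 4.12 in UUO7. After reversal it was 1.68, 2.48, 3.33 and 2.41 at 1 week (R1W), 2.13, 1.35, 3.10 and 1.61 at 2 weeks (R2W) and 1.97, 2.62, 2.21 and 0.651 at 4 weeks (R4W). All 20 mice outside Sham were above all 4 Sham mice. On deposited values the Sham mean of Sox9, 0.1675, was under 1, the smallest mean of any gene in the table. Sox9 thus has a row only through its level outside Sham, and that filter favoured a difference from Sham. The ratio of the group mean to that of Sham was 73.1 in UUO2, 26.6 in UUO7, 12.1 in R1W, 10.0 in R2W and 9.13 in R4W. On the log2(scaled FPKM + 1) scale, which understates the change of so low a gene, the fold change was 3.45 (SE 0.38, adjusted p = 3.94e-07) in UUO2, 2.41 (adjusted p = 8.67e-06) in UUO7 and 1.19 (adjusted p = 0.0102) in R4W. With a pseudocount of 10 the differences of R1W, R2W and R4W from Sham no longer passed. The authors' deposited table gives log2 fold changes of 6.25 for UUO2, 4.74 for UUO7 and 3.20 for R4W against Sham.

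Sox9 fell from UUO2 to UUO7 by 1.04 on the log2 scale (adjusted p = 0.022). This call was lost on deposited values (-0.74, adjusted p = 0.0962), in a fit of the 2 groups alone (adjusted p = 0.113) and on leaving out UUO2 replicate 1, 3 or 4 or UUO7 replicate 4 (adjusted p between 0.0604 and 0.093). R1W lay below every UUO7 mouse, but the fall of the fit, -0.90, did not pass (adjusted p = 0.115). In a fit without the UUO2 libraries it was -0.91 (adjusted p = 0.00815). For this fall the authors' deposited table gives -1.14, with an adjusted p under 0.05 from a test that was not stated. R2W (-1.10, adjusted p = 0.0347) and R4W (-1.21, adjusted p = 0.0126) were below UUO7. The R4W call was lost without R4W replicate 4, the mouse of lowest Sox9 in that group (-0.97, adjusted p = 0.0544), and with a pseudocount of 10 (-0.38, adjusted p = 0.0687). In the order Sham, R4W, R2W, R1W, UUO7, UUO2 the first and last steps passed and the 3 between did not.

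Sox4 also rose in obstruction and was above Sham in every later group. It was 3.27, 5.91, 4.07 and 3.86 in Sham and 21.7, 12.6, 21.3 and 33.3 in UUO2. It was 16.4, 15.6, 12.1 and 18.7 in UUO7 and 12.5, 19.5, 6.51 and 10.7 in R1W. It was 17.6, 10.2, 17.5 and 13.5 in R2W and 13.3, 14.1, 12.5 and 10.6 in R4W. Every mouse outside Sham was above every Sham mouse. The mean rose 5.2-fold in UUO2 (log2 fold change 2.09, SE 0.265, adjusted p = 2.24e-06), and was 3.67 times the Sham mean in UUO7 and 2.95 times in R4W (log2 fold change 1.39, adjusted p = 1.48e-04). From UUO7 to R4W the difference was -0.29 (95% interval -0.84 to 0.27, adjusted p = 0.387). For that difference the authors' deposited table gives -0.35, with an adjusted p under 0.05 from a test that was not stated. Without UUO2 replicate 2 the fall from UUO2 to UUO7, -0.42 (adjusted p = 0.179) over all mice, was -0.65 (adjusted p = 0.0365). Against UUO2 it was lower in R1W (-0.82, adjusted p = 0.0115) and R4W (-0.70, adjusted p = 0.0285), but on deposited values neither passed (adjusted p = 0.118 and 0.165). In the order Sham, R1W, R4W, R2W, UUO7, UUO2 the first step was the sole one to pass (adjusted p = 2.66e-04).

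The non-coding gene Gm26735 shares exon bases with Sox4 on the opposite strand and has a row. It was 0.228 ± 0.271 (SD, n = 4) in Sham, 2.05 ± 1.24 in UUO2, 11.4 ± 3.58 in UUO7, 10.2 ± 5.54 in R1W and 2.35 ± 0.462 in R4W. Its highest means thus fell in UUO7 and R1W, and that of Sox4 in UUO2. If strand was not used in counting, reads of the shared bases cannot be assigned to either gene.

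UUO2 replicate 2 carried the lowest Sox9 and Sox4 and the highest Hnf4a and Tfcp2l1 of its group. Without that mouse the fold change of Sox9 in UUO2 against Sham was 4.04. The ratio of Sox9 to Hnf4a within a library, which does not depend on the scaling, had a median of 0.0834% in Sham, 13.0% in UUO2, 9.46% in UUO7, 4.00% in R1W, 2.60% in R2W and 2.16% in R4W. In UUO2 it was 1.42% in its lowest mouse and 16.1% in its highest. Sox4 relative to Hnf4a had a median of 1.76% in Sham, 25.8% in UUO7 and 13.4% in R4W. For both ratios the lowest mouse of each of the other groups lay above the highest Sham mouse, at 0.143% for Sox9 and 3.06% for Sox4.

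**Figure D3:**
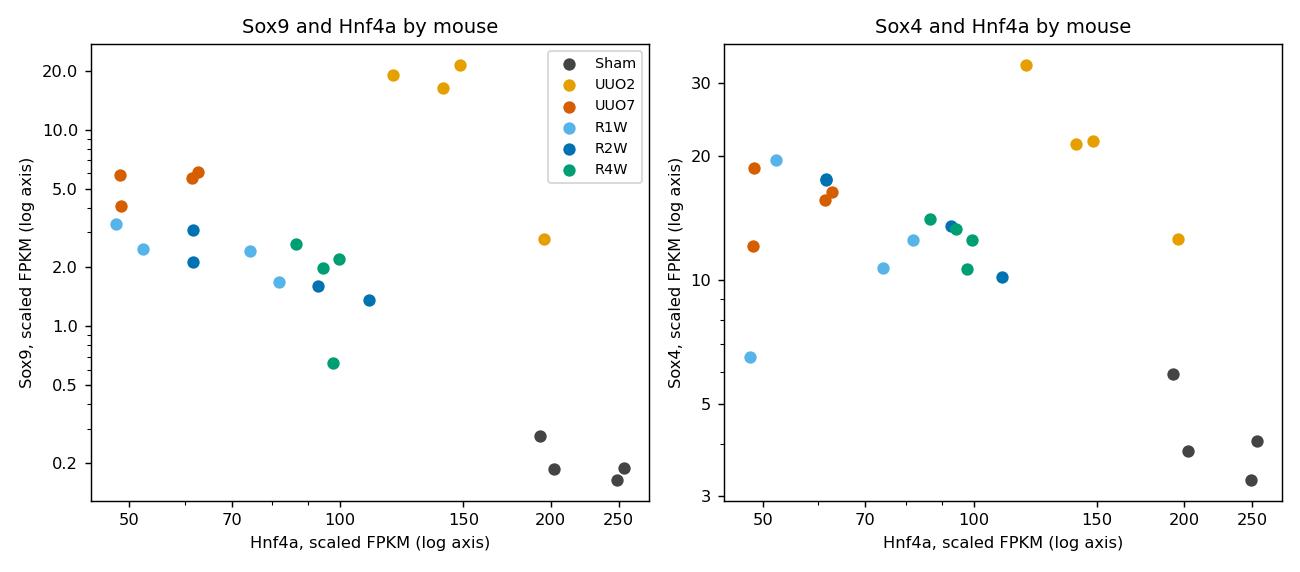
Scaled FPKM of Sox9 (left) and Sox4 (right) against Hnf4a in each of the 24 mice, all axes logarithmic, groups in colour. Sham mice lie lower right, 3 of the 4 UUO2 mice are highest, UUO2 replicate 2 (Hnf4a 196) lies below them, and R4W mice lie between UUO7 and Sham on the Hnf4a axis.

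Across the comparisons the members' calls were set against those of all genes. In UUO2 against Sham 4 of 6 members were called (3 higher, 1 lower) and 2 did not overlap between groups, where 50.8% of all genes were called and 41.7% did not overlap. In the UUO7 mice set against Sham 4 were called, 2 in each direction, and 4 did not overlap, against 73% of all genes called and 68.4% not overlapping. In R4W against Sham 4 were called (Sox9, Sox4 and Pax8 higher, Hnf4a lower) and 4 did not overlap, against 60.1% called and 58% not overlapping. Against Sham 3 were called in R1W (background 68.3%) and 3 in R2W (63.6%). In R1W and R2W the members called were Hnf4a, Sox9 and Sox4. None of these shares of 6 members stands far above its background. On deposited values 4 members were called in UUO2 (49.2% of all genes), 4 in UUO7 (77.9%), 5 each at 1 and 2 weeks after reversal (74.1% and 69%) and 6 in R4W (66.4%), the added ones in R4W being Pax2 and Tfcp2l1.

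Between UUO2 and UUO7 4 members were called, all lower in UUO7 (Hnf4a, Pax8, Sox9 and Tfcp2l1), against 62% of all genes, 30% higher and 31.9% lower; on deposited values Hnf4a alone was called, against 66.7% of all genes, and the fold change of Pax8 became 0.05. The call of Pax8 (-0.30, adjusted p = 0.0449) was also lost with upper-quartile scaling (adjusted p = 0.156), without UUO2 replicate 1 (-0.19, adjusted p = 0.196) or 4 (adjusted p = 0.0737), and without any UUO7 mouse (adjusted p between 0.0514 and 0.0891). In R4W against UUO7 5 of 6 were called (Hnf4a, Pax8, Pax2 and Tfcp2l1 higher, Sox9 lower) and 4 did not overlap, against 48.3% called (25.1% higher and 23.2% lower) and 49.1% not overlapping. In R1W against UUO7 limma called 0 members, with 2 at an unadjusted p under 0.05 (Sox9 and Tfcp2l1), against 14.4% of all genes. In the authors' deposited table Sox9 and Tfcp2l1 have an adjusted p under 0.05 in that comparison. In R2W against UUO7 3 were called, against 29.8%; on deposited values 1 was called, against 32.3%, with Hnf4a (adjusted p = 0.0535) and Tfcp2l1 (adjusted p = 0.0752) lost. Between R1W and R4W 2 were called (Hnf4a and Pax8), against 17.3%. In R2W against R1W 0 members were called and 0 had an unadjusted p under 0.05, and in R4W against R2W 0 were called with Pax8 at an unadjusted p of 0.0225; 0.00676% and 0.0676% of all genes were called there. Comparisons that share a group, such as the 5 against Sham, are not independent of each other.

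**Figure D4:**
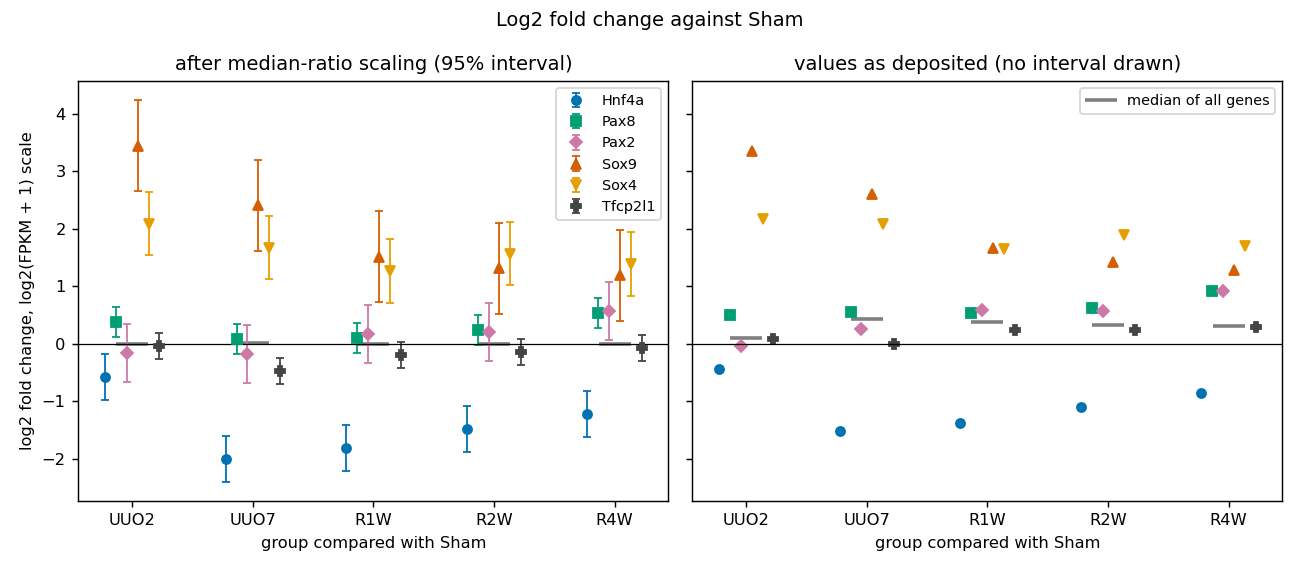
Log2 fold change of the 6 factors against Sham in the 5 other groups, after median-ratio scaling with 95% intervals (left) and on deposited values (right); grey bars mark the median of all genes. On the right the grey bar lies at 0.42 in UUO7 and 0.30 in R4W, and Tfcp2l1 in UUO7 lies at -0.01.

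Genes of the same networks were read from lists, by their counts beside all genes. Of all genes 25.3% were higher and 25.5% lower in UUO2 against Sham, 36.5% and 36.5% in UUO7, and 28.9% and 31.1% in R4W, with medians of 0.01 in UUO7 and -0.01 in R4W. On deposited values 77.9% of all genes were called in either direction in UUO7 and 66.4% in R4W. The median gene on that scale was 0.42 and 0.30 above Sham, a shift that the deposited counts below carry. Of 10 other proximal tubule and Hnf network factors, all 10 fell in UUO7 (median -1.10) and all 10 were still lower in R4W (median -0.67). On deposited values 9 and 5 were called lower. In UUO2 against Sham 1 of the 10 was higher (Maf, 0.78), 2 were lower and 7 were not called. Ppara fell furthest of them in UUO7 (-2.16); it encodes the receptor that drives fatty acid oxidation. From UUO7 to R4W 6 of the 10 rose, where 25.1% of all genes were higher and 23.2% lower. Of 10 proximal genes described as dependent on Hnf4a, all 10 fell in UUO7 (median -2.71), all 10 rose from UUO7 to R4W (median 1.47), and all 10 were below Sham in R4W (median -1.16). The greatest fall in UUO7 was that of Slc22a8, an organic anion transporter (-3.62). In UUO2, where Hnf4a fell by 0.58, 8 of these 10 were lower already (median -1.21). Slc34a1, Cubn and Lrp2 of this list are also among the proximal tubule markers, whose sum was lowest in UUO7. The part of that fall in these changes was not tested.

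Distal genes were read in the same way. Of 9 collecting duct genes described as dependent on Tfcp2l1, 8 fell and 1 rose in UUO7 (median -1.62), all 9 rose from UUO7 to R4W, and in R4W against Sham 2 were higher, 0 lower and the rest not called (median -0.06). The greatest fall was that of Slc4a1 (-3.65), the anion exchanger of acid-secreting intercalated cells, which in R4W differed from Sham by -0.41 (adjusted p = 0.354); the one that rose was Jag1 (0.25), a Notch ligand. In UUO2, where Tfcp2l1 differed from Sham by -0.04 (95% interval -0.27 to 0.18), 5 of the 9 were lower. Some of the 9 are also among the intercalated or principal cell markers. The 5 intercalated cell markers summed to 196 to 220 in Sham, 68.6 to 78.7 in UUO7 and 177 to 246 in R4W. Their part in these changes was not tested. Of 18 other distal nephron and collecting duct factors 9 fell and 3 rose in UUO7, from Irx1 (-2.16) to Hoxb7 (0.62), whereas on deposited values 5 fell and 5 rose. In R4W against Sham 6 were higher and 4 lower, and on deposited values 12 were higher and 0 lower.

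Of 14 listed factors of the developing nephron 8 had a row. In UUO7 4 of these were higher and 3 lower, with Lhx1 (-2.08) and Tcf21 (2.23) at the ends; Tcf21 is also a gene of stromal cells and podocytes. On deposited values 5 were higher and 1 lower. The 6 fibroblast markers summed to 21.6 to 53.3 in Sham, 387 to 502 in UUO7 and 188 to 280 in R4W; the 4 podocyte markers summed to 51.4 to 58.2, 68.5 to 76.5 and 106 to 149 in these groups. The part of either in the change of Tcf21 was not tested. Of 11 other SOX genes 6 had a row, and in UUO7 2 were higher and 2 lower, from Sox6 (-1.33) to Sox18 (1.62), a gene of endothelium; on deposited values 4 were higher and 1 lower. The 6 endothelial markers summed to 64.2 to 104 in Sham, 28.3 to 65.0 in UUO2 and 123 to 132 in UUO7. Of 6 genes described downstream of Pax2 and Pax8, 4 had a row; in R4W 2 were higher than Sham (Wt1, 1.19, and Gata3, 0.81) and 1 lower (Lhx1, -0.83), and on deposited values 3 were higher and 0 lower. Wt1 is also a podocyte gene, and the part of the podocyte rise given above in its change was not tested. The urothelium sum was 42.8 to 144 in R4W against 2.20 to 45.4 in Sham, and the principal cell sum 458 to 1056 against 386 to 979. Their part in the change of Gata3 was not tested.

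Factors of the injury response were raised in obstruction, as were Sox9 and Sox4. All 9 listed rose in UUO2 and in UUO7 (medians 1.80 and 2.33), from Foxm1 (1.17 in UUO7), a driver of mitosis, to Atf3 (2.85), a stress-response factor. All 9 fell from UUO7 to R4W (median -0.86), and 8 were above Sham in R4W. Some of these are expressed by leukocytes too: the 5 macrophage markers summed to 49.7 to 72.2 in Sham, 68.9 to 155 in UUO2, 608 to 735 in UUO7 and 557 to 1043 in R4W, and the 4 lymphocyte markers with a row to 1.34 to 2.07, 1.75 to 3.66, 7.17 to 13.6 and 12.9 to 24.7. Their part in these changes was not tested. All 9 genes of injured tubules rose in UUO2, in UUO7 (median 3.76) and in R4W (median 2.28) against Sham. Stromal cells and leukocytes also express some of them, among them Vim, Cd44 and Vcam1, and the part of the fibroblast and macrophage rises given above was not tested. Havcr1 went from 2.34 ± 0.364 (SD, n = 4) in Sham to 515 ± 197 in UUO2, 415 ± 45.1 in UUO7 and 16.2 ± 6.52 in R4W, a course like that of Sox9 in its order of groups. Cdh6, a cadherin of the developing proximal tubule and the smallest rise of the list in UUO7 (0.90), was 1.31 above Sham in R4W.

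**Figure D5:**
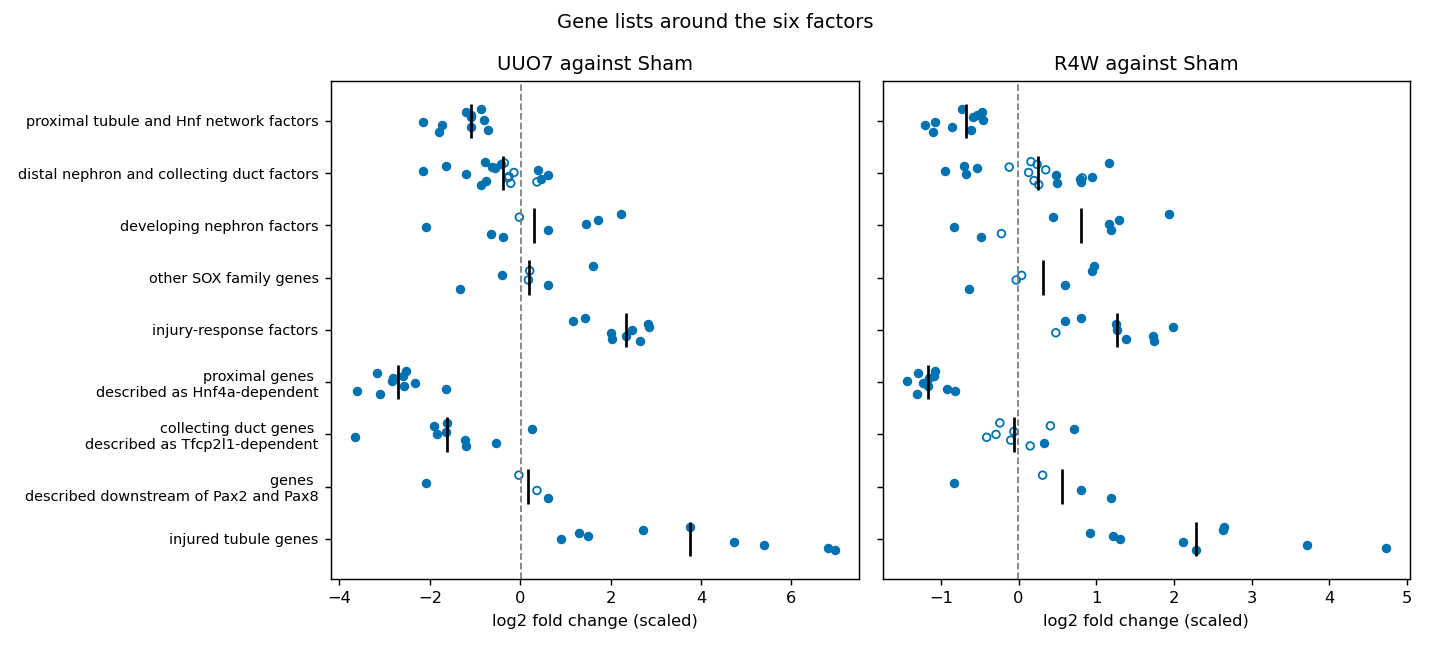
Log2 fold change on scaled values of each gene of 9 lists in UUO7 (left) and R4W (right) against Sham; filled points passed an adjusted p under 0.05, bars mark list medians, and the dashed line the median of all genes; the horizontal axes differ in range. Proximal lists lie wholly left of the line in both panels, whereas the collecting duct genes described as dependent on Tfcp2l1 have a median of -1.62 on the left and -0.06 on the right.

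For each member the 3 genes of most similar course were taken from 9571 genes with a mean of at least 5, by Pearson's r over the 24 libraries on the scaled log2 scale; these r describe libraries that share groups and are no test. Hnf4a was followed most closely, by B3galt5 (r = 0.994), Pdzd3 (0.988) and Ddah1 (0.987). Ddah1, an enzyme that clears a natural inhibitor of nitric oxide synthase, went from 98.3 in Sham to 22.2 in UUO7 and 43.7 in R4W. Sox9 was nearest to Rbpms (0.969), Tnfrsf12a (0.968) and Nop58 (0.966). Tnfrsf12a, the receptor of the cytokine TWEAK, was 23.6 in Sham, 194 in UUO2 and 38.4 in R4W, and in UUO2 replicate 2 it was 49.4. Sox4 was nearest to Eif4e3 (0.943), Ap2b1 (0.938) and Taok3 (0.938). Pax2 was nearest to Epn3 (0.932), the heat-shock gene Hspa1b (0.926) and Muc20 (0.925). Tfcp2l1 was nearest to Pfas (0.874), Ppargc1a (0.870) and Spire1 (0.863), and for Ppargc1a, a coactivator of mitochondrial genes, r was 0.526 on deposited values. Pax8 had the least close partners, led by Ptprj (0.795).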

How the data were processed

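The members and gene lists were chosen with earlier results of these data known. The authors deposited 1 table of 14785 genes. Its sample columns carry no stated unit; FPKM was inferred from the deposited values, which have 2 decimals and sum to 717415 to 830179 per library. FastQC, Bowtie2, RSEM, DESeq2 and mm10 are named per the submitters' processing notes, and which tool made which column is not stated. Genes of low mean are not in the table, whose smallest gene mean is 1. The authors' log2 fold changes, and adjusted p-values of 15 comparisons per the file headers, were deposited without the test; their base and direction were inferred from the sample columns. The design text describes 20 libraries over 3 lanes of 2 × 100 bases, and 24 libraries were used.

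Each library was divided by the median, over genes, of its ratio to the geometric mean of all libraries. The lmFit and trended eBayes functions of limma 3.58.1 (R 4.3.3) were run on log2(value + 1) with 6 group coefficients, Benjamini-Hochberg adjustment over all genes and calls at an adjusted p under 0.05. Tested on simulated data for UUO7 against Sham with 14785 genes, it recovered 91 of 100 changes of 1 and 99 of 100 changes of 2 on the log2 scale, and called 5 unchanged genes. Depth was implied by steps in low values of 2347 genes with 1 transcript. Each of the 4 libraries of a group is a separate mouse per the titles and the design text; 0 columns were identical. Named genes were the members, the genes of greatest and least change in UUO7 against Sham of each list, and for each member the 3 genes of highest r; others are named where a result turns on them and were chosen after their values were seen; some genes that the rule names are not reported here. Alternatives were other scalings, pseudocounts of 0.1 and 10, a minimum mean of 10, fits of 2 groups, without UUO2 or with the replicate number as a block, stricter calls, R4W replicate 2 placed in R2W, and leaving out each replicate. Leaving out Sham replicate 2 and UUO2 replicate 2 together was added after seeing the data.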

Additional observations from a re-analysis of the deposited data

Results flagged for a closer look

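Pax2 in UUO2 replicate 2 was 12.6 scaled FPKM, far from the other mice of its group at 10.1 to 10.5. Of 36 such checks, over 6 genes in 6 groups, 1 was flagged, and chance would flag about 1.8.

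In the test of UUO7 against UUO2, which called 62% of all genes, 4 members passed: UUO7 minus UUO2 was -1.42 for Hnf4a, -0.30 for Pax8, -1.04 for Sox9 and -0.44 for Tfcp2l1 on the log2 scale (limma, adjusted p = 2.30e-06, 0.0449, 0.022 and 0.00145). The calls of Pax8 and Sox9 were lost on leaving out single mice, and on deposited values Hnf4a alone passed, with Pax8 at 0.05, Sox9 at -0.74 and Tfcp2l1 at -0.10 (adjusted p = 0.779, 0.0962 and 0.414). In the test of R4W against R1W, which called 17.3% of all genes, Hnf4a was 0.59 and Pax8 0.44 higher in R4W (adjusted p = 0.0403 and 0.0229). Both calls were lost in a fit of the 2 groups alone (adjusted p = 0.0833 and 0.0935) and on leaving out single mice, and that of Pax8 on deposited values (adjusted p = 0.0758).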

How the results depend on the processing

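Of the members, Hnf4a, Sox9 and Sox4 kept their direction against Sham in UUO2, UUO7 and R4W under every alternative run; Sox9 has no value under a minimum mean of 10. In UUO2 against Sham 2 members were called under the 0.01 threshold and 2 when a log2 change of 1 or more was also asked. In UUO7 against UUO2 1 was called on deposited values (9855 of all genes), 2 at 0.01 and 2 with the minimum change (2102 of all genes). Leaving out single replicates gave 2 to 5. In R1W against UUO7 1 was called without UUO2 and 2 in the fit of 2 groups. In R4W against UUO7 3 were called at 0.01 and 1 with the minimum change (857 of all genes). In R4W against R1W 1 was called on deposited values. The fit of 2 groups (115 of all genes), the 0.01 threshold (414) and the minimum change (119) each gave 0. Leaving out single replicates gave 0 to 2. Except for the stricter calls, the cause was not tested.

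The sign turned for members that had not passed, and for Pax8 in UUO7 against UUO2. On deposited values it turned for Tfcp2l1 against Sham in UUO2 (0.089), R1W (0.237), R2W (0.231) and R4W (0.294) and against UUO2 in R1W (0.148), R2W (0.142) and R4W (0.205), for Pax2 in UUO7 against Sham (0.256) and UUO2 (0.303), and for Pax8 in UUO7 against UUO2 (0.050), R1W against UUO7 (-0.019) and against UUO2 in R1W (0.031) and R2W (0.108), and in R2W against R1W for Pax2 (-0.017) and Tfcp2l1 (-0.006). With upper-quartile scaling it turned for Pax2 in UUO7 against UUO2 (0.050) and Tfcp2l1 in R4W against Sham (0.020). Without Sham replicate 2 Pax2 turned in UUO2 (0.137) and UUO7 (0.118) against Sham, and without that and UUO2 replicate 2 it was 0.070 and 0.118, and 0.048 in UUO7 against UUO2. Leaving out each replicate in turn gave -0.321 to 0.137 for Pax2 and -0.151 to 0.032 for Tfcp2l1 in UUO2 against Sham, -0.340 to 0.118 for Pax2 in UUO7 against Sham and -0.126 to 0.053 against UUO2, -0.105 to 0.136 for Pax8 in R1W against UUO7 and -0.025 to 0.217 against Sham, and -0.126 to 0.357 for Sox4 in R4W against R1W. The cause of these turns was not tested.

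The mice of equal replicate number did not deviate together: in none of the 15 comparisons did all 4 pairs correlate above 0.1. With the replicate number as a block 3 members were called in UUO7 against UUO2, where Pax8 had an adjusted p of 0.0593; UUO2, UUO7 and R4W against Sham gave 4 each, R4W against UUO7 5, R4W against R1W 2 and R1W against UUO7 0.

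Among all genes, calls against Sham numbered 7515 and 10789 in the obstructed groups (2 and 7 days) and 10102, 9403 and 8880 after reversal (1, 2 and 4 weeks). With a minimum mean, which tests fewer genes, they were 4450, 5902, 5544, 5216 and 4961, and with the minimum change 1340, 3569, 2774, 2283 and 1943. UUO7 against UUO2 went from 9162 to 5005 and 2102 under these settings, and R4W against UUO7 from 7148 to 4304 and 857. R1W against UUO7 went from 2130 to 566 at 0.01, 187 with the minimum change and 1088 without R1W replicate 4; UUO7 replicates 1, 3 and 4 and R1W replicate 1 also moved it (1143 to 1402). R4W against R1W went from 2553 to 115 in the fit of 2 groups, 414 at 0.01, 119 with the minimum change, 470 without R1W replicate 3, and 1347 and 1511 without R4W replicates 1 and 4.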
